A study of Mus musculus with 26 samples.

Results

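The 10 genes described here encode chaperones and proteases of the mitochondrion: Hspd1, Hspe1, Hspa9, Grpel1, Trap1, Lonp1, Clpp, Clpx, Htra2 and Yme1l1. They were chosen by gene symbol, not by a measured value, though with earlier results of these data known. All 10 were found among the 20430 symbols of the RNA tables and the 19941 symbols of the footprint tables. The cells were NIH3T3, an established line of mouse embryonic fibroblasts, and all groups were this line with no genotype or vector named. Polyadenylated RNA was sequenced from 16 libraries in 8 groups: heat stress at 44 °C for 2 h, heat stress at 42 °C for 8 h, a control for heat, oxidative stress by H2O2 for 2 h or 7 h, osmotic stress by KCl for 2 h or 7 h, and a control shared by H2O2 and KCl. Ribosome footprints, the mRNA fragments that ribosomes protect from nuclease, came from 10 libraries of the 5 H2O2 and KCl groups. Each group had 2 replicates. The labels do not say whether these were separate cultures, so the p-values measure the spread between libraries, which may be technical. Concentrations of H2O2 and KCl were not given in the sources used here. In bulk RNA, fewer cells and less RNA per cell cannot be told apart.

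Most mitochondrial proteins are made in the cytosol and imported as unfolded chains. In the matrix, mtHSP70 (Hspa9) pulls chains inward and helps them fold, with Grpel1 as its nucleotide exchange factor, and the chaperonin of Hspd1 (HSP60) and its lid Hspe1 (HSP10) encloses chains that need a closed chamber. Trap1 is the HSP90 of mitochondria. Damaged matrix proteins are degraded by the protease Lonp1 and by the ClpXP complex, in which the Clpx ring unfolds chains for the Clpp peptidase. Yme1l1 is a protease of the inner membrane and Htra2 (Omi) a serine protease of the intermembrane space. Induction of several of these genes under protein damage in the matrix is known as the mitochondrial unfolded protein response, for which Atf4, Atf5, Ddit3 (CHOP) and Cebpb have been named as regulators, while Hsf1 drives the cytosolic heat shock response.

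Hspd1 and Hspe1 lie head to head on chromosome 1 of the mouse assembly GRCm38 (mm10, the build in the submitters' processing notes). In RefSeq, Hspd1 spans 55077833 to 55088243 on the minus strand and Hspe1 spans 55088148 to 55091317 on the plus strand, so their annotated 5′ ends overlap by 96 bases. A stretch that lies upstream of the Hspe1 start and of an inner Hspd1 start, but inside the annotated Hspd1 span, is shown because these genes had the largest heat changes of the 10. It holds 3 overlapping matches of paired heat shock units, the DNA pattern bound by heat shock factors (GAANNTTC or TTCNNGAA, searched on both strands), and the 18 matched bases are in capitals. The 30 bases at chr1:55088053-55088082 (RefSeq, GRCm38.p6) are given on both strands, 5′ to 3′.
Hspe1 strand (plus): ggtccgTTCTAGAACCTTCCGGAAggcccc
Hspd1 strand (minus): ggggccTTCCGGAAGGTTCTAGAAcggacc
The match begins 89 bases before the Hspe1 start site and 144 bases before the inner Hspd1 start site at 55087932. Among all 32851 RefSeq promoter windows of the same length (250 bases before to 50 after a start), 15.1% held at least 1 such pair and 0.256% held 3 or more. The table had 9 windows for 8 of the 10 genes (all but Hspa9 and Htra2). Of these, 2 held 3 or more, and these were the overlapping windows of Hspe1 and Hspd1. The Clpp window held 1 pair, after its start site.

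The other 3 patterns were searched on both strands in the same 9 windows. The ATF4 and CHOP element (TGATGNAA), present in 3.97% of all windows, was found in 0 of the 9. The core of nuclear respiratory factor 1 (GCGCNTGCG), present in 6.31% of all windows, was found in 1 Hspd1 window and, at 2 places, in the Clpx window. The antioxidant element (TGACNNNGC), present in 12.4% of all windows, was found only in the Lonp1 window of the 9, at 2 places, before and after the start site. Its match before the Lonp1 start is shown because Lonp1 was among the members with the largest H2O2 changes, at chr17:56626986-56627015 (RefSeq, GRCm38.p6, minus strand), with the matched bases in capitals.
Lonp1: agtctccctcTGACCACGCccactcactca
These matches are descriptions of the letters and not measured binding.

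Heat raised the chaperonin pair most, H2O2 after 7 h raised Hspa9 and Lonp1 most, and KCl after 7 h raised Grpel1 and lowered Clpp and Htra2. Changes are log2 fold changes of expected counts with the standard error (SE) of the fit, and a gene was called at an adjusted p of at most 0.05 (edgeR quasi-likelihood test, adjusted over all genes tested). At 44 °C, 7 of the 10 genes were called, 4 higher and 3 lower, where 71.0% of all tested genes were called. At 42 °C, 7 were called, 6 higher and 1 lower, against 63.6% of all genes. After 2 h of H2O2, 4 were called (3 higher, 1 lower) against 53.9%, and after 7 h, 9 were called (6 higher, 3 lower) against 70.5%. After 2 h of KCl, 8 were called (6 higher, 2 lower) against 54.2%, and after 7 h, 9 were called (4 higher, 5 lower) against 68.8%. The count after 2 h of H2O2 was smaller without H2O2 2 h replicate 2 and without control replicate 1. H2O2 and KCl share their control libraries. With so many genes called, these counts are near the background, and the size of a change says more than its call. A log2 change of at least 1 in addition to the call was met by 2 of the 10 at 44 °C (11.0% of all genes), 2 at 42 °C (7.92%), 0 after 2 h of H2O2 (13.3%), 2 after 7 h of H2O2 (23.3%), 0 after 2 h of KCl (12.7%) and 2 after 7 h of KCl (18.4%). These were Hspd1 and Hspe1 at both heat regimes, Hspa9 and Lonp1 after 7 h of H2O2, and Clpp and Htra2 after 7 h of KCl. The median log2 fold change of the 10 genes was 0.02 at 44 °C, 0.20 at 42 °C, -0.02 and 0.46 after 2 h and 7 h of H2O2, and 0.21 and -0.05 after 2 h and 7 h of KCl. The median of all tested genes lay between -0.0145 and 0.0753 in these 6 comparisons.

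**Figure D1:**
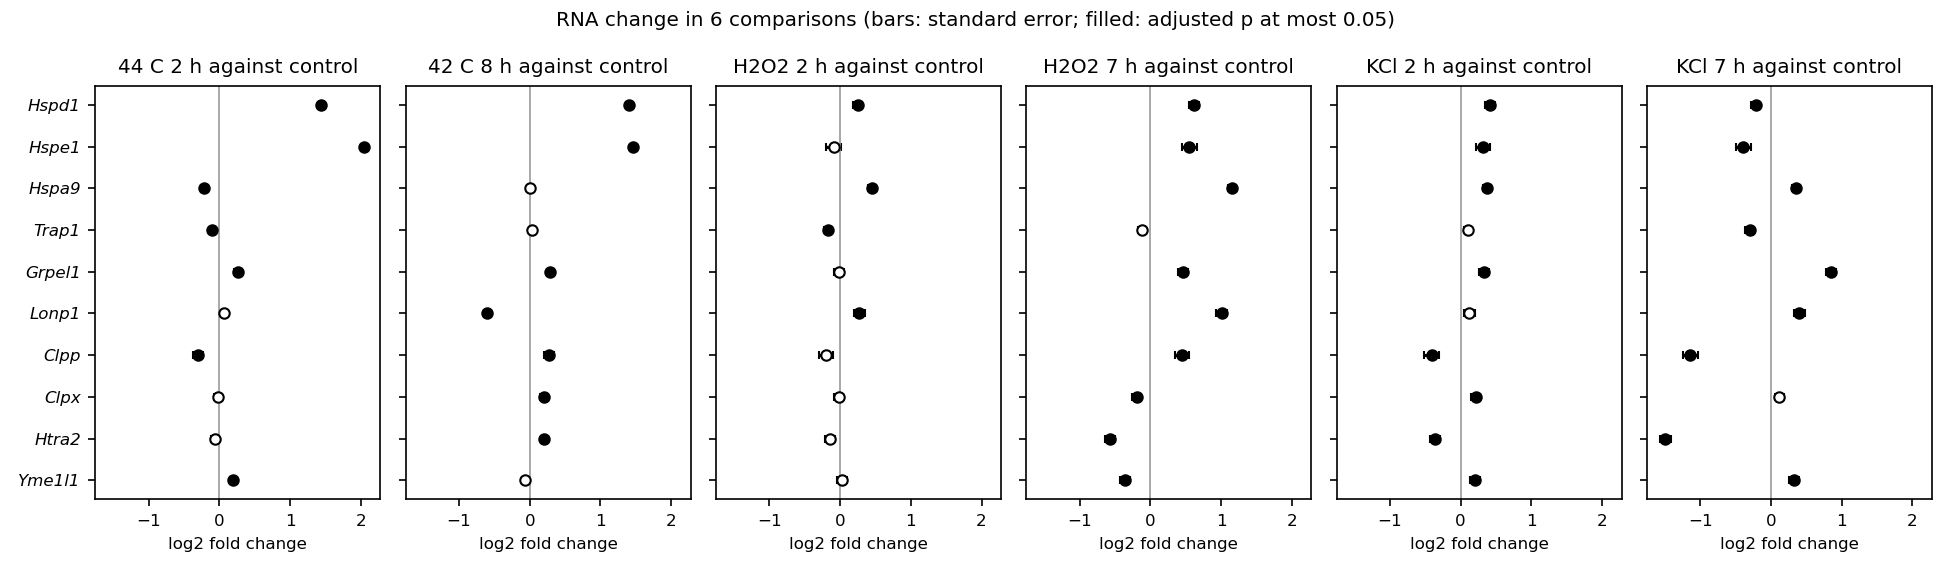
RNA log2 fold change of each gene (rows) against the control in 6 comparisons (panels), with bars of 1 standard error and filled points for an adjusted p of at most 0.05. Hspd1 and Hspe1 stand right of 1 under both heat regimes, Hspa9 and Lonp1 after 7 h of H2O2, and Clpp and Htra2 stand left of -1 after 7 h of KCl.

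Levels are given in TPM, which divide by transcript length and so allow genes to be compared. In the control of the H2O2/KCl experiment, the RNA order was Hspd1 (565 ± 20.3 TPM, SD, n = 2), Hspa9 (541 ± 12.2), Hspe1 (298 ± 28.9), Lonp1 (133 ± 11.4), Trap1 (108 ± 5.16), Htra2 (101 ± 1.63), Yme1l1 (91.0 ± 0.686), Clpp (75.3 ± 7.04), Grpel1 (37.9 ± 1.44) and Clpx (36.4 ± 0.0919). The values of neighbouring genes in this order did not overlap. In the heat control, Hspa9 (541 ± 13.2) stood above Hspd1 (392 ± 2.81), and Grpel1 (32.2 ± 0.212) was lowest. The chaperonin and mtHSP70 were thus the most abundant transcripts of the group, and the co-chaperone Grpel1 and the unfoldase Clpx the least. Footprint TPM in the control gave another order, with Hspd1 (641 ± 37.1), Hspe1 (557 ± 88.8) and Hspa9 (494 ± 12.4) first, where Hspe1 overlapped both. Grpel1 followed them at 112 ± 6.40, and Lonp1 came eighth by mean at 47.2 ± 0.438, where its values overlapped those of Htra2 (42.6 ± 11.9). The ratio of footprint to RNA TPM in the control was 2.96 for Grpel1, above 97.5% of 10238 genes with at least 1 TPM in both, and 1.87 for Hspe1 (above 93.6%). It was lowest for Lonp1 at 0.356 (above 19.4%), where the median gene had 0.638. These ratios compare 2 kinds of library and are descriptive.

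**Figure D2:**
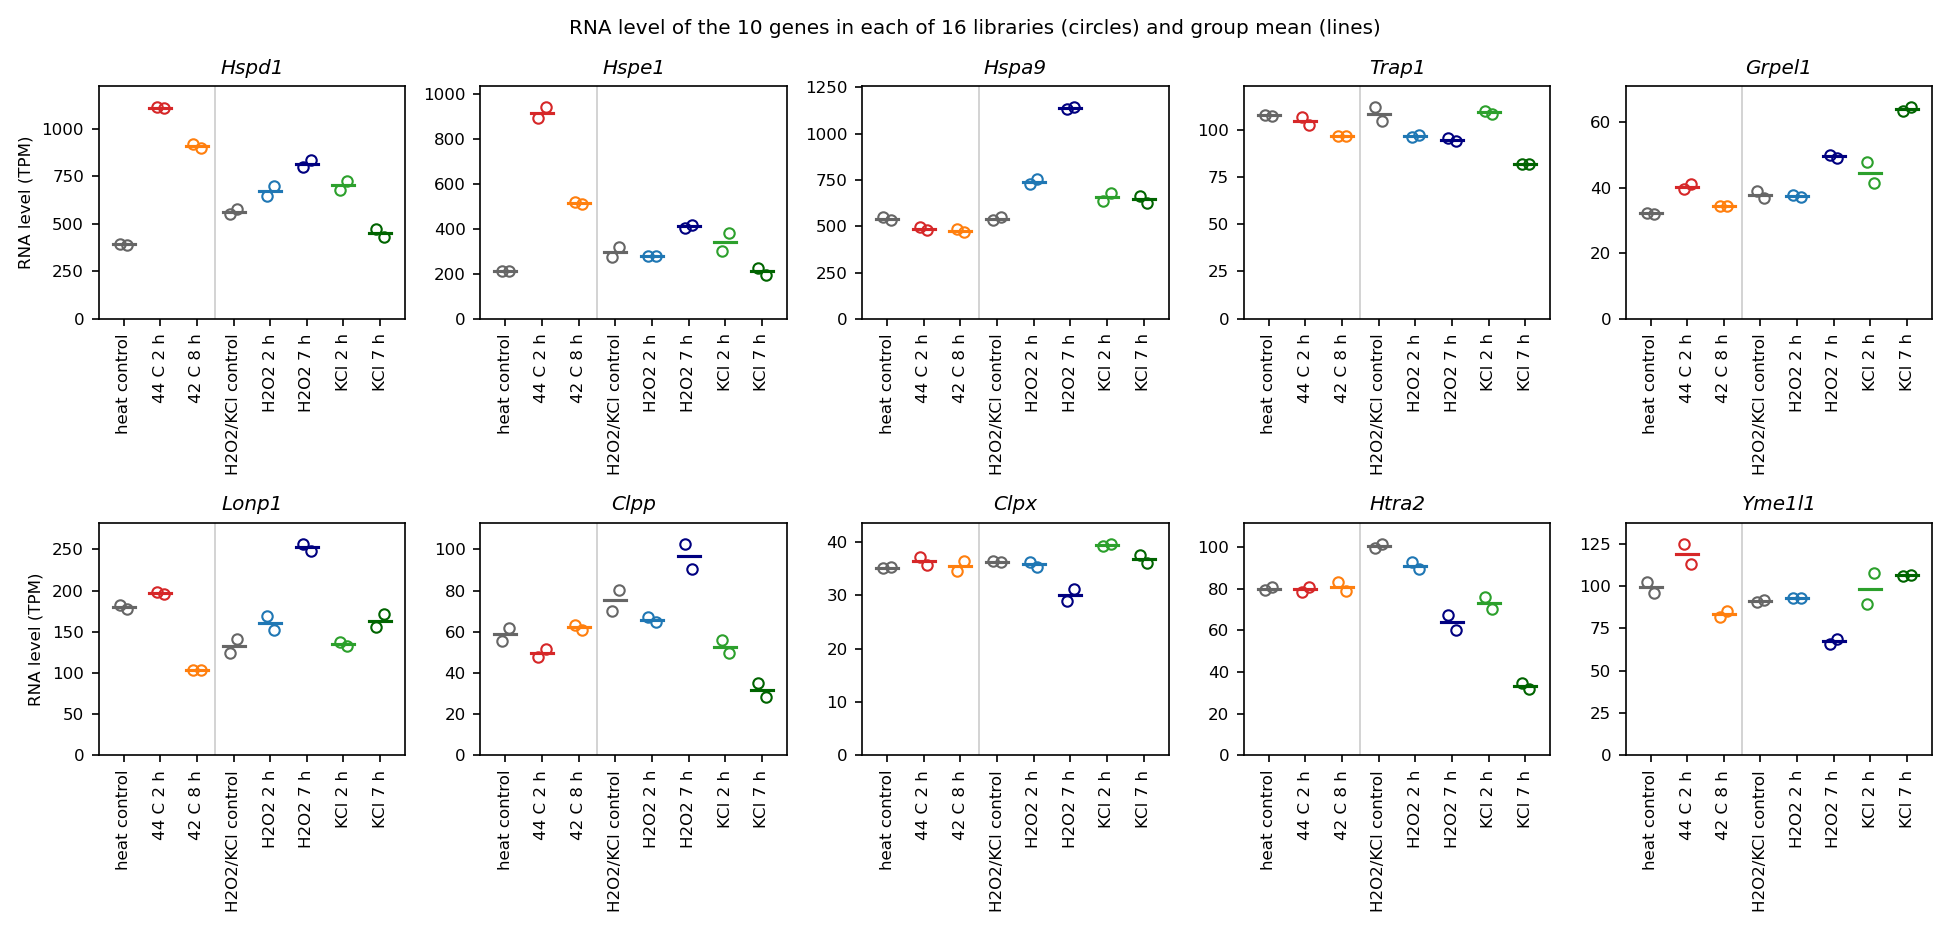
RNA level in TPM (vertical axis, from 0) of each of the 10 genes in 16 libraries, 2 circles per group with a line at the group mean, the heat experiment left of the grey line and the H2O2/KCl experiment right of it. Hspd1 and Hspe1 are highest at 44 °C, Hspa9, Lonp1 and Clpp after 7 h of H2O2, and Grpel1 after 7 h of KCl, where Clpp and Htra2 are lowest.

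Hspd1 and Hspe1 encode the chamber and the lid of the matrix chaperonin. Heat control libraries held 394 and 390 TPM of Hspd1, while those at 44 °C held 1115 and 1109 and those at 42 °C held 919 and 898, so neither heat regime overlapped the control. Its log2 fold change was 1.44 ± 0.04 (SE) at 44 °C (2.71-fold, adjusted p = 2.78e-12) and 1.40 ± 0.04 at 42 °C (2.64-fold, adjusted p = 2.67e-12). For Hspe1 the control values were 214 and 212 TPM, the 44 °C values 893 and 943, and the 42 °C values 522 and 509. Hspe1 rose by a log2 fold change of 2.04 ± 0.05 at 44 °C (4.12-fold, adjusted p = 6.62e-13) and 1.46 ± 0.05 at 42 °C (adjusted p = 1.45e-11). Compared directly, Hspe1 was lower at 42 °C for 8 h than at 44 °C for 2 h (-0.58 ± 0.05, adjusted p = 3.84e-08), while the Hspd1 difference (-0.04 ± 0.04, adjusted p = 0.372) did not pass. The partners therefore did not move in equal measure: the Hspd1 to Hspe1 RNA ratio was 1.84 in both control libraries and 1.76 in both 42 °C libraries but 1.25 and 1.18 at 44 °C. The Hspd1 difference between the regimes depends on the scaling. Its TPM values at 42 °C lay below those at 44 °C, and the median of all genes was also lower on log2(TPM + 1) (-0.203). Temperature and time differ together between the heat regimes and cannot be told apart. The annotated 5′ ends overlap and the sources used here do not say whether counting used strand, and pseudogene copies of both genes exist, so expected counts may divide some reads among them.

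Under H2O2 and KCl the chaperonin changes were smaller. Hspd1 measured 550 and 579 TPM in the shared control, 645 and 697 after 2 h and 801 and 834 after 7 h of H2O2. It rose by 0.25 ± 0.07 after 2 h (adjusted p = 0.00715) and 0.61 ± 0.07 after 7 h (adjusted p = 1.72e-06). The 2 h call was lost without control replicate 1 (0.21) or H2O2 2 h replicate 2 (0.19). Hspe1 measured 277 and 318 TPM in the control and 405 and 420 after 7 h of H2O2, a rise of 0.55 ± 0.10 (adjusted p = 0.00025), and after 2 h its value was -0.09 ± 0.10 (adjusted p = 0.487). Under KCl both were higher after 2 h, Hspd1 by 0.41 ± 0.07 (adjusted p = 0.000157) and Hspe1 by 0.31 ± 0.10 (adjusted p = 0.0191), and both were lower after 7 h, by -0.22 ± 0.07 (adjusted p = 0.0113) and -0.39 ± 0.11 (adjusted p = 0.00434). Hspd1 then stood at 473 and 431 TPM and Hspe1 at 228 and 194, below both control libraries. The Hspe1 call after 2 h was lost without control replicate 1 (0.22) or KCl 2 h replicate 2 (0.13). Both 7 h calls were lost without control replicate 2 (-0.19 and -0.30) or KCl 7 h replicate 2 (-0.14 and -0.27).

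Hspa9, the mitochondrial HSP70 (chromosome 18, 34937414 to 34954351), had its largest change after 7 h of H2O2. It measured 533 and 550 TPM in the control, 729 and 753 after 2 h and 1134 and 1143 after 7 h, with no overlap between the 3 groups. The log2 fold change was 0.45 ± 0.06 after 2 h (adjusted p = 2.25e-05) and 1.15 ± 0.06 after 7 h (2.22-fold, adjusted p = 4.9e-10). With KCl it measured 634 and 678 TPM after 2 h and 665 and 627 after 7 h, and rose by 0.37 ± 0.06 (adjusted p = 0.000125) and 0.36 ± 0.06 (adjusted p = 0.000101). Neither heat regime raised it. Hspa9 fell by 0.22 on the log2 scale at 44 °C (± 0.04, adjusted p = 0.00028) and its value at 42 °C was 0.01 ± 0.04 (adjusted p = 0.91). At 42 °C the scaling matters: on log2(TPM + 1) the Hspa9 value was -0.18, where the median of all genes also moved to -0.16.

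Grpel1 (chromosome 5, 36465185 to 36474077) exchanges the nucleotide of mtHSP70 and took a different course from it. Its RNA measured 38.9 and 36.9 TPM in the H2O2/KCl control, 47.8 and 41.4 after 2 h of KCl and 63.3 and 64.6 after 7 h. It rose by 0.32 ± 0.07 after 2 h (adjusted p = 0.0015) and 0.85 ± 0.07 after 7 h of KCl (1.81-fold, adjusted p = 1.06e-07). After 7 h of H2O2 it reached 50.0 and 49.2 TPM (0.47 ± 0.07, adjusted p = 3.73e-05), and its 2 h value was -0.02 ± 0.07 (adjusted p = 0.825). With heat it rose by 0.26 ± 0.05 at 44 °C (adjusted p = 0.00027) and 0.29 ± 0.05 at 42 °C (adjusted p = 0.000167), of which the latter was not called on log2(TPM + 1) (0.10). The ratio of Hspa9 to Grpel1 RNA, which was 13.7 and 14.9 across the H2O2/KCl control libraries, was 22.7 to 23.2 after 7 h of H2O2 and 9.71 to 10.5 after 7 h of KCl. In footprints the same ratio was 4.31 and 4.51 in the control, 3.46 and 3.94 after 7 h of H2O2 and 2.87 and 3.22 after 7 h of KCl. At 7 h the RNA ratio was thus above its control with H2O2 and below it with KCl, and the footprint ratio was below its control with both.

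**Figure D3:**
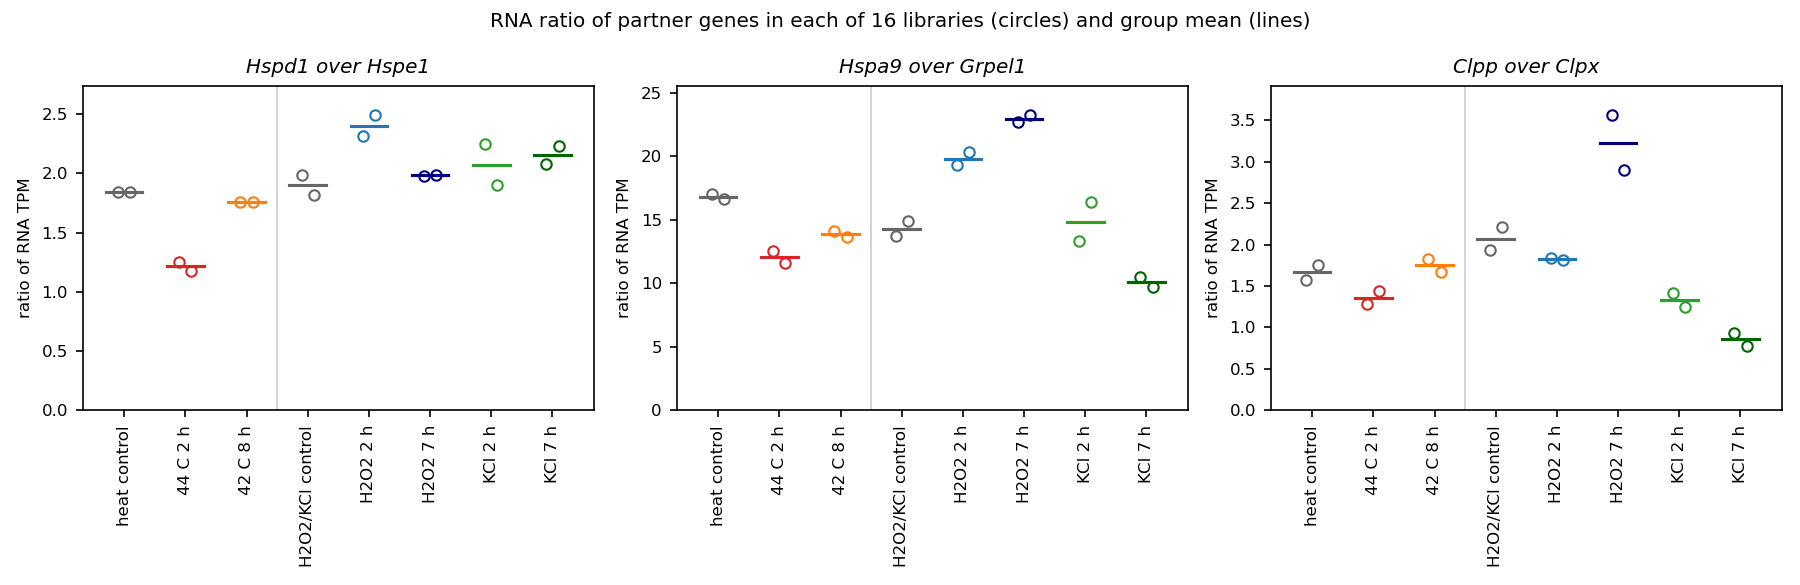
Ratio of RNA TPM (vertical axis, from 0) between partner genes in each of 16 libraries, 2 circles per group with a line at the group mean. Hspd1 over Hspe1 is lowest at 44 °C (1.18 and 1.25), Hspa9 over Grpel1 is highest after 7 h of H2O2 (22.7 and 23.2), and Clpp over Clpx is highest after 7 h of H2O2 (2.90 and 3.56) and lowest after 7 h of KCl (0.778 and 0.934).

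Trap1 (chromosome 16, 4039971 to 4077840), the mitochondrial HSP90, varied least in RNA level among the chaperones. Its RNA ranged from 81.6 to 112 TPM over the 16 libraries. It fell by 0.30 on the log2 scale after 7 h of KCl (± 0.06, adjusted p = 0.000338), with 81.8 and 81.6 TPM against 112 and 105 in the control. It was also lower after 2 h of H2O2 (-0.17 ± 0.06, adjusted p = 0.0245), a call lost without control replicate 1 (-0.11) or H2O2 2 h replicate 2 (-0.18). After 7 h of H2O2 its value was -0.11 ± 0.06 (adjusted p = 0.0904). This 7 h value was called with RLE factors and on log2(TPM + 1), and lay between -0.21 and -0.06 with 1 library left out. At 44 °C the call (-0.11 ± 0.04, adjusted p = 0.0283) was lost without either control library (-0.11 in both cases) or without 44 °C replicate 2 (-0.10), and with DESeq2 (-0.10). The values at 42 °C (0.04 ± 0.04, adjusted p = 0.446) and after 2 h of KCl (0.10 ± 0.06, adjusted p = 0.142) did not pass, and the former was -0.15 on log2(TPM + 1).

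Lonp1 (chromosome 17, 56614297 to 56626903), the ATP-dependent matrix protease, moved in opposite directions under 42 °C heat and H2O2. Its heat control values were 182 and 178 TPM, followed by 198 and 196 at 44 °C but 104 and 103 at 42 °C. The fall at 42 °C was -0.61 ± 0.04 on the log2 scale (adjusted p = 1.57e-08), and the value at 44 °C was 0.06 ± 0.04 (adjusted p = 0.157). Under H2O2 it rose from 125 and 141 TPM in the control to 169 and 152 after 2 h and 257 and 248 after 7 h. The change was 0.27 ± 0.07 after 2 h (adjusted p = 0.00666) and 1.01 ± 0.07 after 7 h (2.01-fold, adjusted p = 2.05e-08). The 2 h call was lost without control replicate 1 (0.19) or H2O2 2 h replicate 1 (0.13). KCl gave 0.12 ± 0.07 after 2 h (adjusted p = 0.176) and a rise of 0.40 ± 0.07 after 7 h (adjusted p = 0.000234).

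Clpp (chromosome 17, 56990264 to 56996371) and Clpx (chromosome 9, 65294251 to 65330658) encode the peptidase and the unfoldase of ClpXP. Clpp measured 70.3 and 80.2 TPM in the control, 103 and 90.6 after 7 h of H2O2, and 35.1 and 28.1 after 7 h of KCl. It rose by 0.45 ± 0.10 after 7 h of H2O2 (adjusted p = 0.00112), a call lost without H2O2 7 h replicate 1 (0.27). It fell under KCl, by -0.41 ± 0.10 after 2 h (adjusted p = 0.00425) and -1.14 ± 0.11 after 7 h (adjusted p = 4.78e-07), of which the 2 h call was lost without control replicate 2 (-0.32). So the same gene was above the control under one stress and below it under the other. Heat also divided it, with -0.30 ± 0.07 at 44 °C (adjusted p = 0.00174) and 0.28 ± 0.07 at 42 °C (adjusted p = 0.00344), a difference of 0.58 ± 0.07 between the regimes (adjusted p = 4.51e-06). The 42 °C call was lost without 42 °C replicate 1 (0.23) and on log2(TPM + 1) (0.08). After 2 h of H2O2 Clpp gave -0.19 ± 0.10 (adjusted p = 0.122).

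Clpx ranged from 28.9 to 39.7 TPM over all 16 RNA libraries. It fell by 0.19 on the log2 scale after 7 h of H2O2 (± 0.06, adjusted p = 0.0147), a call lost without control replicate 1 (-0.19), and rose by 0.21 ± 0.06 after 2 h of KCl (adjusted p = 0.0117), lost without control replicate 2 (0.20). At 42 °C its 0.20 ± 0.05 (adjusted p = 0.00358) was not called on log2(TPM + 1) (0.01). The other Clpx values were -0.02 ± 0.05 at 44 °C, -0.02 ± 0.06 after 2 h of H2O2 and 0.12 ± 0.06 after 7 h of KCl, none of them called. The subunit ratio of Clpp to Clpx RNA therefore followed Clpp, from 2.90 to 3.56 after 7 h of H2O2 to 0.778 to 0.934 after 7 h of KCl, with 1.93 to 2.21 in their control.

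Htra2 (chromosome 6, 83051266 to 83054571), the serine protease of the intermembrane space, had the largest fall of the group. It measured 99.4 and 102 TPM in the control, 76.2 and 70.2 after 2 h of KCl and 34.7 and 31.9 after 7 h, 3 levels without overlap. The log2 fold change was -0.36 ± 0.07 after 2 h (adjusted p = 0.00083) and -1.49 ± 0.08 after 7 h (2.81-fold lower, adjusted p = 1.36e-09). H2O2 lowered it to 67.7 and 60.1 TPM after 7 h (-0.57 ± 0.07, adjusted p = 7.25e-06), and the 2 h value was -0.14 ± 0.07 (adjusted p = 0.107). In the heat experiment all 6 libraries lay between 78.6 and 83.2 TPM. The call at 42 °C (0.21 ± 0.05, adjusted p = 0.00245) was lost without 42 °C replicate 1 (0.16) and on log2(TPM + 1) (0.02), and the 44 °C value was -0.07 ± 0.05 (adjusted p = 0.235).

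Yme1l1 (chromosome 2, 23155442 to 23199260), the AAA protease of the inner membrane that faces the intermembrane space, moved less. After 7 h of H2O2 it measured 65.8 and 68.9 TPM against 90.5 and 91.5 in the control and fell by 0.35 on the log2 scale (± 0.07, adjusted p = 0.000562). KCl for 7 h gave 106 and 107 TPM, a rise of 0.32 ± 0.07 (adjusted p = 0.00114), the direction opposite to that of Htra2. Its rise of 0.20 ± 0.07 after 2 h of KCl (adjusted p = 0.0295) was lost without either control library (0.20 in both cases) or without KCl 2 h replicate 2 (0.07). Heat at 44 °C raised it by 0.20 ± 0.05 (adjusted p = 0.00177). The values at 42 °C (-0.07 ± 0.05, adjusted p = 0.242) and after 2 h of H2O2 (0.03 ± 0.07, adjusted p = 0.747) did not pass.

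The stresses were also compared directly, and the counts of called members were near the share of all genes called. Between H2O2 and KCl after 2 h, 5 of the 10 genes were called against 51.3% of all genes, and after 7 h, 10 of 10 were called against 78.4%. After 7 h, Clpp (1.59 ± 0.11, adjusted p = 7.04e-09), Hspe1 (0.94 ± 0.11, adjusted p = 1.32e-06), Htra2 (0.92 ± 0.08, adjusted p = 8.06e-08), Hspd1 (0.83 ± 0.07), Hspa9 (0.80 ± 0.06), Lonp1 (0.61 ± 0.07) and Trap1 (0.19 ± 0.06) were higher in H2O2. Yme1l1 (-0.68 ± 0.07), Grpel1 (-0.39 ± 0.07) and Clpx (-0.31 ± 0.07) were higher in KCl. Chaperones and proteases were found on both sides. The 2 h count fell to 3 without H2O2 2 h replicate 2 or KCl 2 h replicate 2. The Trap1 call was lost without H2O2 7 h replicate 1 (0.16) or KCl 7 h replicate 2 (0.17). Between the heat regimes, 8 of 10 genes were called against 75.1% of all genes, with the largest differences for Lonp1 (-0.67 ± 0.04), Hspe1 and Clpp.

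Within each stress, tests of 7 h against 2 h were chosen after seeing the data, and their RNA counts were near the share of all genes called. With H2O2, 9 of 10 genes differed in RNA (73.4% of all genes), Trap1 being the exception (0.05 ± 0.06, adjusted p = 0.427), and the largest differences were Lonp1 (0.73 ± 0.07) and Hspa9 (0.70 ± 0.06). With KCl, 7 of 10 differed (68.8% of all genes), led by Htra2 (-1.13 ± 0.08), Clpp (-0.73 ± 0.12), Hspe1 (-0.71 ± 0.11) and Hspd1 (-0.63 ± 0.07). The chaperonin pair thus stood lower after 7 h than after 2 h of KCl and higher after 7 h than after 2 h of H2O2.

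Footprints were set against these RNA changes. Fewer reads were behind them (1460751 to 5168537 per library, against 24441877 to 45244430 for RNA), and their standard errors were larger, so a value that missed the threshold is not shown to be absent. With KCl, 3 of the 10 genes were called in footprints after 7 h (20.4% of all genes), and the same 3 genes were the members with the largest RNA changes. Grpel1 footprints measured 117 and 108 TPM in the control and 221 and 207 after 7 h, a rise of 0.97 ± 0.17 (1.95-fold, adjusted p = 0.00223). Htra2 footprints fell from 34.2 and 50.9 TPM to 19.2 and 20.3 (-1.08 ± 0.31, adjusted p = 0.0256), and Clpp footprints from 78.8 and 86.8 TPM to 53.5 and 51.2 (-0.63 ± 0.19, adjusted p = 0.0356). The groups did not overlap for any of the 3, but these genes were picked by their calls in the same libraries, so this adds no support. The Clpp call was lost without any 1 of the 4 libraries (-0.73 to -0.52) and with DESeq2 (-0.61), and the Htra2 call without control replicate 2 (-0.72) or either KCl library (-1.04 and -1.12). The Grpel1 call was kept in each case.

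With H2O2, 1 of 10 genes was called in footprints after 7 h (27.7% of all genes). This was Grpel1, with 181 and 172 TPM against 117 and 108 (0.54 ± 0.17, adjusted p = 0.0305), a call lost when any 1 of the 4 libraries was left out (0.47 to 0.52) and with DESeq2 (0.54). Hspa9 footprints measured 625 and 678 TPM against 503 and 486 in the control (0.29 ± 0.18, adjusted p = 0.268), and Hspd1 footprints 538 and 609 against 615 and 667 (-0.27 ± 0.22, adjusted p = 0.394). Lonp1 footprints measured 64.4 and 67.1 TPM against 46.9 and 47.5 (0.37 ± 0.20, adjusted p = 0.195). None of these 3 footprint values passed, although the RNA of each had risen. Those of Hspe1 (0.15 ± 0.18, adjusted p = 0.586) and Htra2 (-0.82 ± 0.30, adjusted p = 0.0582) did not pass either. After 2 h, edgeR called 0 of 10 genes in footprints with H2O2 (1.91% of all genes) and 0 with KCl (6.86%), and DESeq2 also called 0 in each. At an unadjusted p under 0.05 there was 1 gene in each, Clpp, with footprint values of 0.64 ± 0.19 (H2O2) and 0.43 ± 0.19 (KCl).

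**Figure D4:**
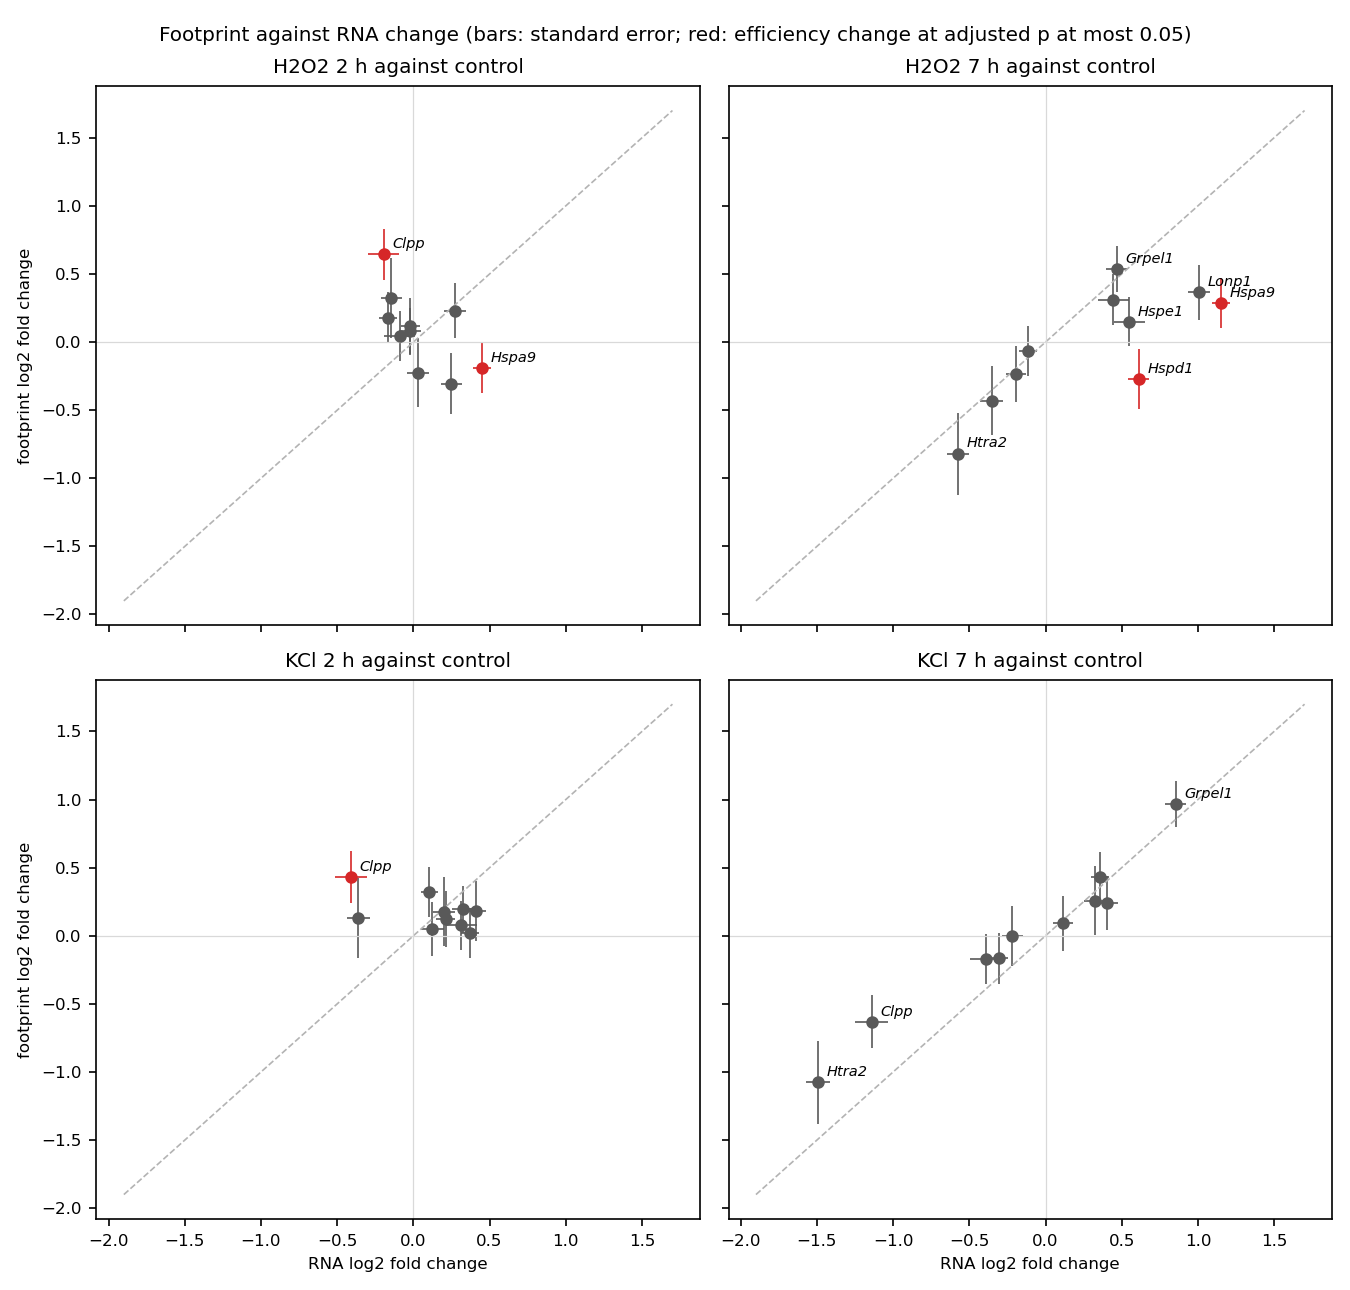
Footprint log2 fold change (vertical axis) against RNA log2 fold change (horizontal axis) of the 10 genes in 4 comparisons, with bars of 1 standard error, a dashed line of equal change and red for a called change of translational efficiency. Genes past 0.5 on either axis and red genes are named. After 7 h of KCl, Grpel1, Clpp and Htra2 have the same sign on both axes, with Clpp and Htra2 above the line of equal change, and after 7 h of H2O2 Hspa9 and Hspd1 lie below it.

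Translational efficiency, the footprint to RNA ratio of a gene tested as an interaction in a model of both kinds of library, was tested after each time of H2O2 and KCl. The model used 1 estimate of spread per gene for both kinds, although footprints varied more. The standard errors and p-values of efficiency may therefore be too small. Called in the H2O2 7 h group were 2 of 10 genes (9.27% of all genes): Hspd1 (-0.88 ± 0.23, adjusted p = 0.026) and Hspa9 (-0.86 ± 0.17, adjusted p = 0.00553). The Hspa9 call was kept without any 1 library. The Hspd1 call was lost without footprint library H2O2 7 h replicate 1 (-0.76), footprint control replicate 2 (-0.76) or any 1 of the 4 RNA libraries (-0.89 to -0.82). Lonp1 gave -0.64 ± 0.20 (adjusted p = 0.0552), which passed with DESeq2 (-0.63) and with limma voom (-0.64). After 2 h of H2O2, 2 were called (11.4% of all genes), Hspa9 lower (-0.68 ± 0.17, adjusted p = 0.0189) and Clpp higher (0.78 ± 0.20, adjusted p = 0.0168). Both were lost without the shallowest footprint library, H2O2 2 h replicate 1 (-0.53 and 0.63), without RNA library H2O2 2 h replicate 2 (-0.66 and 0.76) and without RNA control replicate 2 (-0.70 and 0.69). Without RNA control replicate 1 the Hspa9 call was lost (-0.67), and without footprint control replicate 1 that of Clpp (0.67).

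After 2 h of KCl, 1 gene was called for efficiency (12.8% of all genes), Clpp (0.83 ± 0.20, adjusted p = 0.00985), whose RNA had fallen while its footprints stood at 113 and 103 TPM against 78.8 and 86.8 in the control. The call was lost without RNA library KCl 2 h replicate 2 (0.75). After 7 h of KCl, edgeR called 0 of 10 (5.57% of all genes), with 0.14 ± 0.14 for Grpel1, 0.54 ± 0.21 for Clpp and 0.45 ± 0.32 for Htra2. DESeq2 and limma voom also called 0, and 1 gene (Clpp) had an unadjusted p under 0.05. The tests of 7 h against 2 h in footprints called 1 of 10 genes with H2O2 (29.8% of all genes), Htra2 (-1.14 ± 0.30, adjusted p = 0.0128). With KCl they called 3 of 10 (20.6%), Clpp (-1.06 ± 0.20, adjusted p = 0.003), Grpel1 (0.77 ± 0.17, adjusted p = 0.00783) and Htra2 (-1.21 ± 0.31, adjusted p = 0.0159). The Clpp call was kept without any 1 library. That of Htra2 with H2O2 was lost without footprint library H2O2 2 h replicate 1 (-0.80) or either 7 h library (-1.19 and -1.17), and with KCl without KCl 2 h replicate 2 (-0.78) or either 7 h library (-1.17 and -1.25). That of Grpel1 was lost without either KCl 2 h library (0.75 and 0.79) or KCl 7 h replicate 1 (0.72).

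Other genes of the same pathways moved with their own patterns. Of 21 other mitochondrial chaperones, proteases and cofactors, 17 were called at 44 °C (5 higher, 12 lower, median -0.18), 11 at 42 °C (10 higher, 1 lower, median 0.15), 14 after 7 h of H2O2 (6 higher, 8 lower, median -0.07) and 20 after 7 h of KCl (4 higher, 16 lower, median -0.56). Of all genes, 71.0%, 63.6%, 70.5% and 68.8% were called in these comparisons, with 35.7%, 31.9%, 31.1% and 31.6% lower. Dnaja3, the HSP40 partner of mtHSP70, was higher after 7 h of H2O2 (1.05) and lower after 7 h of KCl (-0.67). Grpel2, the paralog of Grpel1, was higher at 44 °C (0.55), after 7 h of H2O2 (0.53) and after 7 h of KCl (0.49). Oma1, a stress-activated protease of the inner membrane, had the largest fall after 7 h of KCl (-1.44). Of 21 genes of mitochondrial protein import, 16 were higher and 0 lower at 42 °C (median 0.22), where 31.7% of all genes were higher and 31.9% lower. After 7 h of KCl 0 were higher and 13 lower (median -0.33), where 37.2% of all genes were higher and 31.6% lower. At 42 °C the median of all genes was -0.0145 in this fit and -0.163 on log2(TPM + 1). Rises of the size of the 42 °C medians of these 2 lists may therefore depend on the scaling.

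Of the 5 regulators named above (Hsf1 included), 4 were called higher in RNA after 2 h of H2O2, against 27.3% of all genes. These were Ddit3 (1.38), Atf4 (1.22), Atf5 (0.57) and Cebpb (0.33). In the H2O2 7 h group, Ddit3 (2.63), Atf4 (1.46), Atf5 (1.23) and Cebpb (0.72) were called higher and Hsf1 lower (-0.19). Of all genes, 39.4% were higher and 31.1% lower in that group. At 44 °C Atf4 was lower (-0.75) and Atf5 (0.38), Cebpb (0.31) and Hsf1 (0.50) were higher, and at 42 °C Atf5 (-1.88), Ddit3 (-1.57) and Atf4 (-0.44) were lower while Cebpb (0.70) and Hsf1 (0.38) were higher. With KCl for 2 h, Atf4 was higher (0.79) and Ddit3 lower (-0.22). With KCl for 7 h, Atf4 (0.52), Cebpb (0.30), Ddit3 (0.25) and Atf5 (0.25) were called higher, against 37.2% of all genes. In footprints, Ddit3 (2.46), Atf4 (2.44) and Atf5 (2.18) were called higher after 2 h of H2O2 (1.14% of all genes). After 7 h of H2O2 these were Ddit3 (2.90), Cebpb (1.756) and Atf4 (1.755), against 17.2%. After 2 h of KCl only Atf4 was called (0.88, against 1.79%), and Ddit3 was 1.155 (adjusted p = 0.241). After 7 h of KCl Ddit3 (1.59) and Cebpb (0.73) were called (10.5%), while Atf4 (-0.14) and Atf5 (-0.19) were not. The efficiency calls were Atf4 after 2 h of H2O2 (1.18, higher in 3.98% of all genes) and Cebpb after 7 h of H2O2 (1.035, against 4.69%). In RNA, 8 of 9 cytosolic HSP70 and HSP110 chaperones were higher at each heat regime. After 7 h of KCl 7 were higher (median 1.40), among them Hspa4l (3.16), Hspa1b (2.82) and Hsph1 (2.49). Of all genes, 35.4% (44 °C), 31.7% (42 °C) and 37.2% (KCl 7 h) were higher. After 7 h of H2O2, 2 were higher and 5 lower (median -0.37), against 39.4% and 31.1% of all genes.

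The genes with RNA patterns most like 4 of the members were found by Euclidean distance over the 6 log2 fold changes, among 9478 genes outside the 10. Nearest to Hspa9 were Ppm1a (distance 0.369), Chst11 (0.428) and Gnptg (0.448), and nearest to Lonp1 were Fam162a (0.289), Fam171b (0.295) and Edem1 (0.339). Nearest to Clpp were Exosc7 (0.305), Tsfm (0.311) and Npepl1 (0.347). Nearest to Hspd1 were Fsbp (0.965), Ccdc117 (1.02) and Cacybp (1.03), while its partner Hspe1 lay at 0.725.

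The study concerned transcription that runs past gene ends into neighbours, for which the authors deposited calls of downstream-of-gene transcripts (DoGs) and of read-in for 6399 pairs of neighbouring genes. The 10 genes were part of 11 pairs. Hspe1 had a DoG toward Mob4, its downstream neighbour, in 4 of 4 heat-stressed libraries and 0 of 2 heat controls, and in 1 of the 10 other RNA libraries (KCl 2 h replicate 1). Of all pairs, 0.953% (61 pairs) were called in every heat-stressed library and in no heat control. Read-in from Hspe1 into Mob4 was called in 0 libraries. Mob4 RNA was 37.1 and 34.7 TPM in the heat control. Its 44 °C values were 42.9 and 39.7 TPM and its 42 °C values 45.5 and 42.6 TPM. Hspe1 RNA was itself higher in the heat-stressed libraries, and the part of this in the calls was not tested.

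Into the members, read-in was not called. Read-in counts and estimates, here and for Hspe1 above, are given without values over all pairs and are descriptive. Hspd1, Hspe1 and Yme1l1 were the downstream gene of a pair (with Rftn2, Coq10b and Acbd5 upstream), read-in was called in 0 libraries, and the authors' read-in estimate was at most 0.0019. Out of the members, read-in was called once, from Clpp into Alkbh7 in H2O2 2 h replicate 1. The estimates of this pair were 0.297 and 0.309 in the 2 libraries of the group and 0.00996 and 0.0284 in the control. They were also above the control after 2 h of KCl (0.118 and 0.0551). In heat they were 0.116 and 0.0547 at 44 °C and 0.113 and 0.0797 at 42 °C (heat control 0.0188 and 0.0189). After 7 h they were 0 and 0.0155 with H2O2 and 0.0169 and 0.0652 with KCl. Alkbh7 RNA was lower after 2 h of H2O2 (14.8 and 11.9 TPM) than in the control (16.8 and 18.9). Its part in the estimates was not tested. DoGs of Clpp were called in both H2O2 2 h libraries, as for 20.7% of all pairs, and in neither control library. They were also called in 1 library each of the 44 °C, 42 °C and KCl 7 h groups. From Grpel1 into Ccdc96 the estimates were 0.156 and 0.338 in the H2O2 2 h group and 0.189 and 0.138 after 2 h of KCl. The control had 0 and 0.0943, and no DoG or read-in was called in any of these libraries.

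The cell label was checked against marker genes. Of 10 fibroblast markers, 8 were at 1 TPM or more in all 16 RNA libraries (Col1a1 from 694 to 2835 TPM), and Lum stayed under 1 TPM in all. Of 10 markers of other cell types, 5 stayed under 1 TPM in all libraries and 2 (Krt18 and Tubb3) were at 1 TPM or more in all, with summed levels of 19.6 to 41.7 TPM against 4149 to 11280 TPM for the fibroblast markers. Expected counts of the members were 347 to 53999 per RNA library and 71 to 5220 per footprint library.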

How the data were processed

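Polyadenylated RNA (16 libraries) and ribosome footprints (10 libraries) of NIH3T3 cells were analysed from the tables the authors deposited, with groups taken from the labels. The authors deposited expected counts per gene (RSEM, per the file names, which divides ambiguous reads among transcripts) and TPM values for the same libraries. Per the submitters' processing notes, STAR, RSEM and Bowtie were used with mm10, without versions. DoG and read-in calls and a read-in estimate, a ratio per gene pair and library, were deposited by the authors, with no formula in the sources used here. The tables also held 12 columns whose names fit none of the labelled samples, and these were left out.

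Expected counts, which were whole numbers as deposited, were tested with the quasi-likelihood test of edgeR 4.0.16 (limma 3.58.1, R 4.3.3) with TMM and filterByExpr, in 12747 genes for heat RNA, 13256 for H2O2/KCl RNA, 10545 for footprints and 10480 for translational efficiency. Groups of an experiment shared 1 estimate of the spread. Alternatives were RLE factors, DESeq2 1.42.0, no filter, limma on log2(TPM + 1), a replicate block, leaving out each library, a log2 threshold of 1 and, for efficiency, voom with a weight per kind of library. Calculations were tested on simulated data. The members, the other gene lists and the rule for named genes were chosen with earlier results of these data known. All members were named, the regulators, Grpel2 and Dnaja3 in any comparison, and of other lists at most the 3 called genes with the largest change.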

Additional observations from a re-analysis of the deposited data

Results flagged for a closer look

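Several members responded differently to the heat regimes or at the times of a stress, by direct tests in the same fits. Most genes were called in these RNA comparisons. At 42 °C for 8 h against 44 °C for 2 h, the log2 difference in RNA was -0.58 for Hspe1, 0.22 for Hspa9, 0.14 for Trap1, -0.67 for Lonp1, 0.58 for Clpp, 0.22 for Clpx, 0.28 for Htra2 and -0.26 for Yme1l1. Those of Hspa9, Trap1 and Clpx changed sign on log2(TPM + 1), and that of Htra2 was no longer called (0.02).

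After 7 h against 2 h of H2O2, it was 0.36 for Hspd1, 0.64 for Hspe1, 0.70 for Hspa9, 0.49 for Grpel1, 0.73 for Lonp1, 0.64 for Clpp, -0.17 for Clpx, -0.43 for Htra2 and -0.39 for Yme1l1. After 7 h against 2 h of KCl, it was -0.63 for Hspd1, -0.71 for Hspe1, -0.41 for Trap1, 0.53 for Grpel1, 0.28 for Lonp1, -0.73 for Clpp and -1.13 for Htra2. In footprints the difference was -1.14 for Htra2 with H2O2, and 0.77 for Grpel1, -1.06 for Clpp and -1.21 for Htra2 with KCl. The Lonp1 call with KCl was lost without KCl 7 h replicate 2 (0.22), and the Clpx call with H2O2 without H2O2 2 h replicate 1 (-0.17), replicate 2 (-0.20) or H2O2 7 h replicate 1 (-0.13). Among footprints, the Clpp difference stayed called without any 1 library.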

How the results depend on the processing

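Of 96 calls of members over 21 comparisons, 60 were kept under every alternative fit and every left-out library, the log2 threshold aside. Requiring a log2 change of at least 1 left 2 members at 44 °C, 2 at 42 °C, 0 between the heat regimes, 0 and 2 after 2 h and 7 h of H2O2, 0 and 2 after 2 h and 7 h of KCl, 0 and 1 between H2O2 and KCl after 2 h and 7 h, and 0 and 1 in footprints after 7 h of H2O2 and KCl. Of all genes, 15% met this between the heat regimes, and 12.6% and 33.9% between H2O2 and KCl after 2 h and 7 h. In footprints after 7 h the shares were 18.5% with H2O2 and 12.7% with KCl. Without the filter, 8 members differed between H2O2 and KCl after 2 h. DESeq2 called 0 in footprints after 7 h of H2O2, log2(TPM + 1) called 5 after 2 h of KCl, and voom called 1 for efficiency after 2 h of H2O2. The causes were not tested. Leaving out 1 library gave 6 to 7 members at 44 °C, 5 to 7 at 42 °C, 1 to 4 and 8 to 10 after 2 h and 7 h of H2O2, 5 to 8 and 7 to 9 after 2 h and 7 h of KCl, and 3 to 7 and 9 to 10 between H2O2 and KCl after 2 h and 7 h. In footprints after 7 h it gave 0 to 1 (H2O2) and 1 to 2 (KCl), and for efficiency 0 to 4 and 1 to 2 after 2 h and 7 h of H2O2 and 0 to 1 after 2 h of KCl.

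Signs turned for small values. On log2(TPM + 1), Clpx was 0.047 at 44 °C, Hspa9 -0.18 and Trap1 -0.15 at 42 °C, and between the heat regimes Clpx was -0.035, Hspa9 -0.029 and Trap1 -0.11, where all genes had a median of -0.20. From mean TPM these 3 were also negative between the regimes, and CPM after TMM gave 0.22 for Clpx, 0.22 for Hspa9 and 0.14 for Trap1. Without the filter, Hspa9 at 42 °C was -0.00044. Leaving out 1 library gave -0.032 to 0.044 for Hspa9 at 42 °C, -0.098 to 0.023 for Grpel1 and -0.031 to 0.030 for Yme1l1 after 2 h of H2O2, and -0.54 to 0.13 for the efficiency of Htra2 after 7 h of H2O2.

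Same-numbered libraries were not treated as pairs, since not every pair of groups correlated above 0.1: their deviations correlated from -0.0247 to 0.117 (heat RNA) and -0.0531 to 0.0537 (H2O2/KCl RNA). In footprints the 4 pairs of groups with H2O2 2 h gave -0.384 to -0.0459 and the other 6 gave 0.198 to 0.417. The rule does not show that footprint libraries were unpaired, and a block with the H2O2 2 h numbers exchanged was not tested. With a replicate block, counts were as without it except for efficiency after 2 h of H2O2 (3 members) and footprints after 7 h against 2 h of H2O2 (2 members).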
